A study of Mus musculus with 3 samples.

Results

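The adhesive and haemostatic cargo of the platelet alpha granule was described through 10 genes: F5, F13a1, Thbs1, Mmrn1, Sparc, Clu, Selp, Serpine2, Pros1 and Timp3. They were chosen by symbol and matched to their Entrez genes, and all 10 were among the 9822 genes of the count tables. The RNA came from platelets purified from blood of male BALB/c mice, 20 weeks old and wild type for Nxf1, a receptor that carries messenger RNA out of the nucleus. There were 3 libraries in 1 group, with no treatment and no control group, so the data give levels of RNA and their spread and no contrast between conditions. Each library, replicates 1 to 3, carries its own batch number in the labels, so sample and batch cannot be told apart. The labels do not say that the libraries came from separate mice, so errors and p-values measure only how far these libraries vary, and that variation may be technical.

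Alpha granules are the main secretory organelle of platelets. They hold proteins that the megakaryocyte, the parent cell, made itself or took up from plasma, and they release them or bring them to the surface when the platelet is activated. The adhesive cargo bridges platelets to one another and to matrix, and the haemostatic cargo speeds, stabilises or restrains the fibrin clot. Because platelets have no nucleus, their messenger RNA is what the megakaryocyte passed on, and a protein taken up from plasma needs no RNA of its own in the platelet.

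The libraries held 26974129, 25189231 and 26111636 counts, and all pairs of them differed beyond sampling noise (chi-square per degree of freedom between 17.9 and 103.6). All 11 platelet marker genes were present, with a summed level of 39421, 41296 and 42189 CPM (counts per 1000000 counts of the library) in replicates 1, 2 and 3. Red cell markers were at 43583, 4784 and 6210 CPM, so replicate 1 stood apart. B cell markers were at 319.5, 314 and 520.1 CPM, so replicate 3 was highest.

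The members spanned nearly the whole range of the tables. On the length scale (RPKM, reads per 1000 bases of gene length per 1000000 counts of the library) Clu led at 2186 ± 233 RPKM (SD, n = 3), and F13a1 (379 ± 8.87), F5 (216 ± 9.19), Mmrn1 (128 ± 2.64) and Thbs1 (97.8 ± 17.1 RPKM) followed. Pros1 was at 49.5 ± 0.928 RPKM, Selp at 12.9 ± 0.630, Serpine2 at 11.9 ± 0.781 and Timp3 at 3.75 ± 1.15 RPKM. Sparc was last, at 0.240 ± 0.0504 RPKM. The median member was at 73.6 RPKM and the median gene of the tables at 1.49 RPKM. Of the 10 members, 6 lay among the highest 10% of genes by RPKM, whereas Sparc had only 886 genes below it. A minimum of 1 CPM in all 3 libraries was met by 9 of 10 members, Sparc being the exception, and by 77.7% of all genes.

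**Figure D1:**
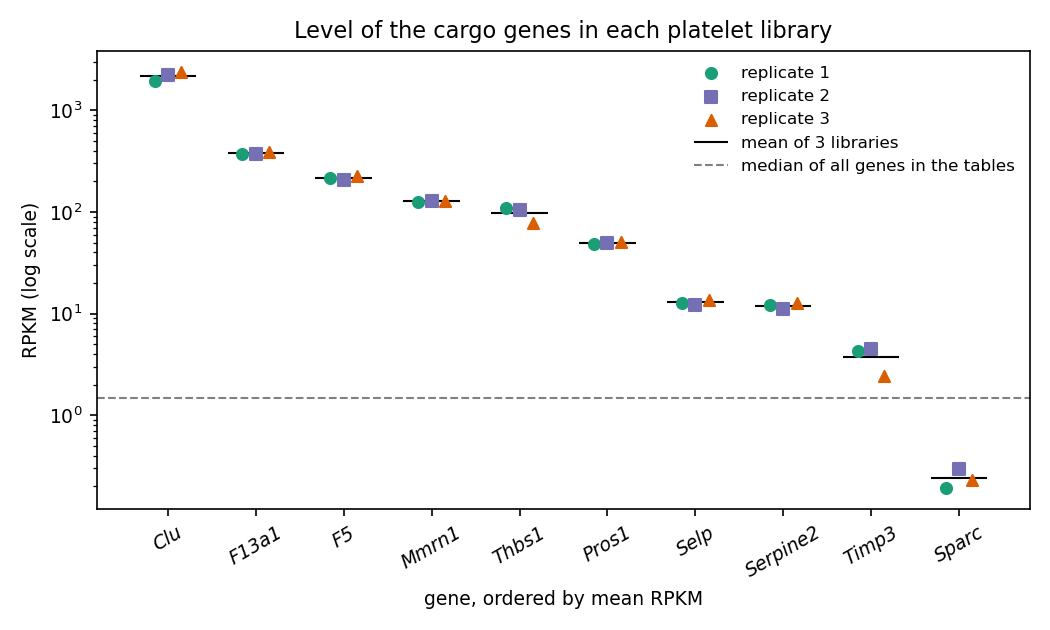
RPKM (log axis) of each cargo gene in replicates 1, 2 and 3 (points), with the mean of the 3 libraries (bars) and the median of all genes in the tables (dashed line, 1.49 RPKM). Clu is at 2186 RPKM and Sparc at 0.240 RPKM, and replicate 3 is low for Thbs1 and Timp3.

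The members together held 0.805% of the counts of replicate 1, and the exact 95% Clopper-Pearson bounds were 0.802% and 0.809%. In replicate 2 they held 0.846% (0.843% and 0.850%), and in replicate 3 0.884% (0.880% and 0.887%). Such bounds cover counting error only. Clu alone made up 46.7% ± 2.86 of the members' counts, and Clu, F13a1 and F5 together 83.3% ± 1.79 (SD, n = 3). The other 7 genes shared the remainder, so the summed level of the cargo is mostly a reading of those 3 genes.

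Of the 9 steps between neighbours in the order of RPKM, all had 1 direction in all 3 libraries and a mean log2 ratio larger than its SD. The smallest was Selp over Serpine2, at a log2 ratio of 0.12 ± 0.03, and the next Mmrn1 over Thbs1, at 0.40 ± 0.28. These steps were not tested, since the smallest two-sided p that exact sign flips of 3 libraries allow is 0.25. How clearly neighbours were separated depended on the gene length used. With the union of GENCODE M21 exons in place of the deposited lengths, a choice made after seeing the data, 3 steps no longer passed: F13a1 over F5 (log2 ratio 0.04 ± 0.05), Mmrn1 over Thbs1 (0.13 ± 0.28) and Serpine2 over Timp3 (0.50 ± 0.58). The order of the members from first to last was the same with these lengths, but Serpine2, whose deposited length of 2055 bases compares with 8287 bases in GENCODE, was at 2.95 ± 0.194 RPKM, against Selp at 10.04 ± 0.491 RPKM.

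**Figure D2:**
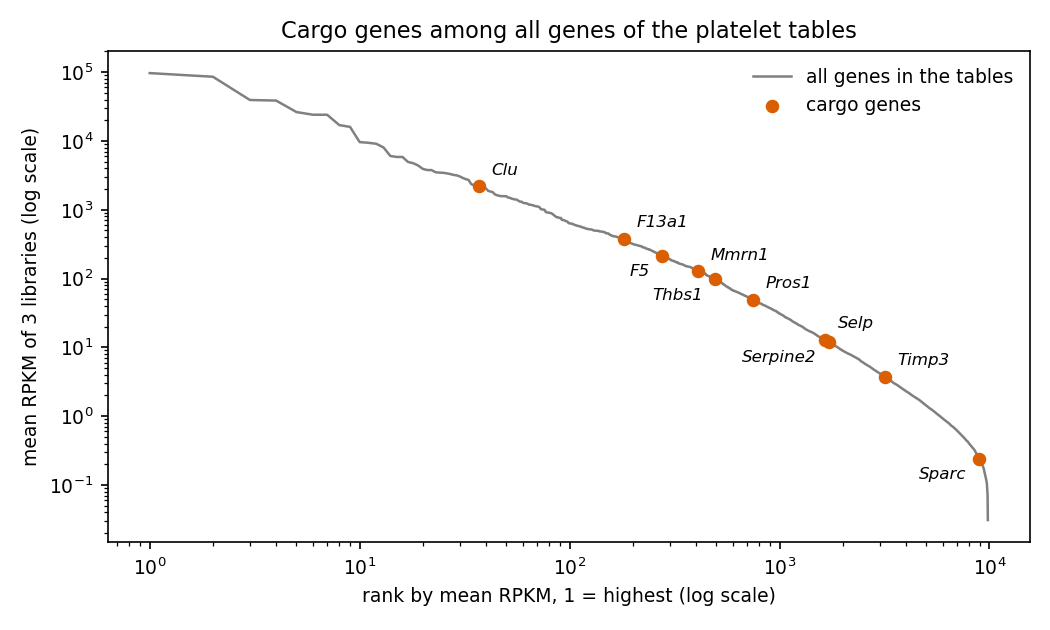
Mean RPKM of the 3 libraries against rank, both on log axes, for all 9822 genes (line) and the 10 cargo genes (points). Clu ranks 37 and Sparc ranks 8936.

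The promoters of 4 members are shown because they belong to the neighbours F5 and Selp, to Mmrn1, and to the lowest member, Sparc. Each is the 250 bases before the RefSeq start in GRCm38.p6, 5′ to 3′ on the strand of the gene. Capitals mark matches to GATA, ETS, RUNX or NF-E2 and AP-1 motifs, of which the Sparc sequence holds none. F5 is at chr1:164151585-164151834 (plus strand), Selp at chr1:164115014-164115263 (plus), Mmrn1 at chr6:60944067-60944316 (plus) and Sparc at chr11:55420081-55420330 (minus).
F5: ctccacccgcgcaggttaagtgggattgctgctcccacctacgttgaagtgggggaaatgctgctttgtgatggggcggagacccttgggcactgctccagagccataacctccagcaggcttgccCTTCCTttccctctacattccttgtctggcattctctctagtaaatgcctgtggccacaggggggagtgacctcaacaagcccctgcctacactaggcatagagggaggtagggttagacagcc
Selp: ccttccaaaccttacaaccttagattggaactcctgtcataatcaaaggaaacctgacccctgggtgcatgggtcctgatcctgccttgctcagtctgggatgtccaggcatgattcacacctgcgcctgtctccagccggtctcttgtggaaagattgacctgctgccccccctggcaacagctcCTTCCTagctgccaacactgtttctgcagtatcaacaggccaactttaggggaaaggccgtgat
Mmrn1: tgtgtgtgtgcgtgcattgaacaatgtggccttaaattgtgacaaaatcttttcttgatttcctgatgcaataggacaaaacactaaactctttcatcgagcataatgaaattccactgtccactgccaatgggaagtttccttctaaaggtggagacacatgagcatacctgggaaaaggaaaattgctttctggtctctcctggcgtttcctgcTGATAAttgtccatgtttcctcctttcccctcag
Sparc: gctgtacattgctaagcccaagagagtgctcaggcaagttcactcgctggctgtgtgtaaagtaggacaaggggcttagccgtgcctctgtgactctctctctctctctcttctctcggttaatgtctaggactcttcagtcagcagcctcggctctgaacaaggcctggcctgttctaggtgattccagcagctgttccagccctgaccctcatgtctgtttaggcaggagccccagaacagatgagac

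The RefSeq promoter table held 8 of the 10 members; Thbs1 and Clu were not matched. Windows of 300 bases, from 250 before to 50 after the start, were searched on both strands, with motif letters that did not overlap between motifs in any member. The ETS letters (GGAAG with an A or C before it) were in 5 of 8 members (F13a1, F5, Selp, Serpine2 and Timp3) and in 46.5% of all 32851 promoters. The GATA letters (GATA with an A or T before it and an A or G after it) were in 2 of 8, Mmrn1 (34 bases before the start) and Pros1 (169 before), and in 29.8% of all promoters. The RUNX letters TGTGGT were in F5 and Sparc, both after the start, and in 16.8% of all promoters. The NF-E2 and AP-1 core TGAGTCA was in 0 of 8 members and in 5.20% of all promoters. F13a1 has 2 listed starts, and ETS letters were found before both, at 105 and 65 bases from one and at 36 from the other. The GC share of the 250 bases before the start ran from 42.4% (Mmrn1) to 78.8% (Serpine2). A match describes letters and not a bound site.

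Coagulation genes followed Clu in the order. F5 encodes factor V, the cofactor that factor Xa needs to turn prothrombin into thrombin (Entrez gene 14067, chromosome 1, 164151835 to 164220277 in GRCm38, plus strand). It had 43600, 38478 and 43379 counts, or 1616, 1528 and 1661 CPM, in replicates 1, 2 and 3. Replicate 2 was lowest and the 3 libraries stayed within a coefficient of variation of 4.25%. F13a1 encodes the A subunit of factor XIII, the transglutaminase that cross-links fibrin (Entrez gene 74145, chromosome 13, 36867178 to 37050244, minus strand). Its levels were 1461, 1476 and 1528 CPM, a coefficient of variation of 2.34%. Per gene length F13a1 gave 1.75 times the level of F5 (log2 ratio 0.81 ± 0.05, SD, n = 3). By reads alone F5 was the higher one (log2 ratio of F13a1 to F5 -0.11 ± 0.05).

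Inhibitors and regulators of clotting were lower. Pros1 encodes protein S, the cofactor with which activated protein C destroys factor Va (Entrez gene 19128, chromosome 16, 62854307 to 62929346, plus strand). It was at 159, 162 and 165 CPM, a coefficient of variation of 1.88%, the smallest of the 10. F5 exceeded it 4.37-fold per gene length (log2 ratio 2.13 ± 0.06) in all 3 libraries. Serpine2 encodes protease nexin 1, a serpin that inhibits thrombin and plasminogen activators (Entrez gene 20720, chromosome 1, 79794317 to 79858665, minus strand). Its levels were 24.8, 22.7 and 25.9 CPM from 670, 572 and 675 counts. Among the other serpins on the list, 8 of 19 were in the tables, with a median of 1.98 RPKM. They were led by Serpinb6a (791 ± 72.8 RPKM), an intracellular serpin, ahead of Serpinb1a (3.33 ± 1.17 RPKM).

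Among the adhesive proteins, Mmrn1 and Thbs1 were close and Selp was lower. Mmrn1 encodes multimerin 1, which binds factor V inside the granule (Entrez gene 70945, chromosome 6, 60944317 to 60989378, plus strand). It was at 578, 599.9 and 599 CPM, with little spread (coefficient of variation 2.07%). Its level per gene length was lower than that of F5, at a log2 ratio of -0.76 ± 0.07, so F5 was 1.69 times higher. Thbs1 encodes thrombospondin 1, a matricellular glycoprotein that bridges activated platelets (Entrez gene 21825, chromosome 2, 118111876 to 118127133, plus strand). It was at 640.3, 607 and 455 CPM from 17271, 15298 and 11873 counts, so replicate 3 lay below the other two. Selp encodes P-selectin, the granule membrane protein that appears on activated platelets and binds leukocytes (Entrez gene 20344, chromosome 1, 164115264 to 164150026, plus strand). It was at 44.2, 42.2 and 46.5 CPM, with no library apart. In GENCODE M21 it shares 9.93% of its exon bases with Gm16548 and 4.21% with Gm16587, both on the opposite strand.

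The receptors that these proteins meet were at very different levels. Selplg encodes PSGL-1, the leukocyte ligand of P-selectin, and Selp was 26.4-fold above it per gene length (log2 ratio 4.72 ± 0.06). Thbs1 was 233-fold above Cd36 (7.86 ± 0.39), a thrombospondin receptor that was at 0.397 RPKM. It was below Cd47, another thrombospondin receptor, by a log2 ratio of -1.57 ± 0.29, whereas by reads alone the ratio was 0.03 ± 0.29. Among 18 genes listed as receptors and binding partners, 11 were in the tables and their median was 1.24 RPKM, with Itga2b (2169 ± 171), Cd47 (287 ± 5.85) and Itgb3 (267 ± 24.4 RPKM) highest.

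**Figure D3:**
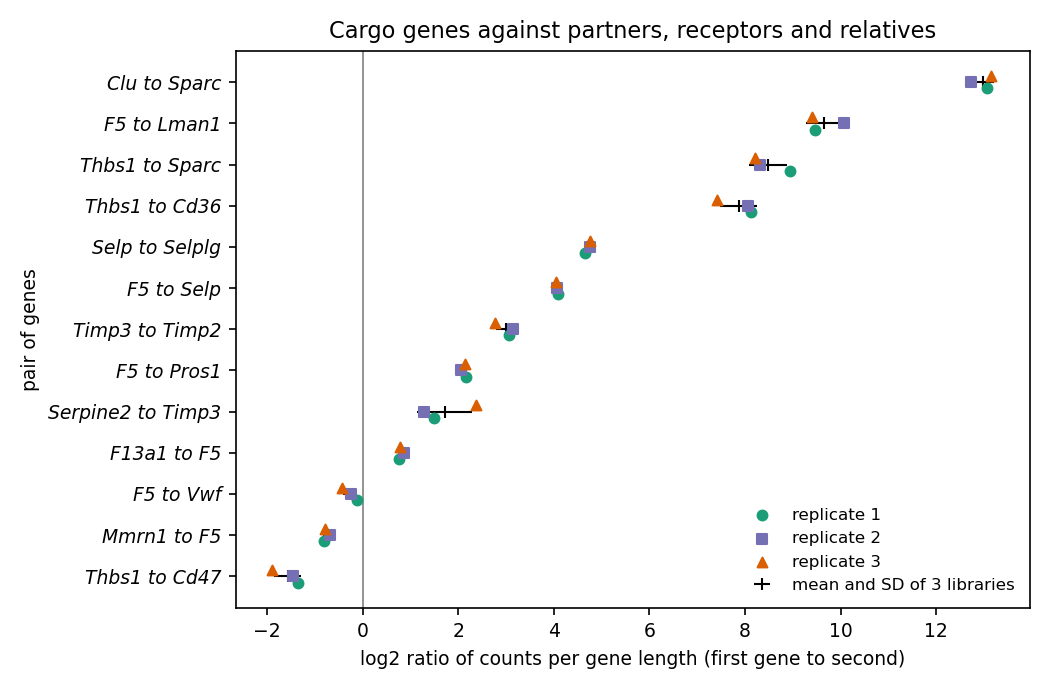
Log2 ratio of counts per gene length for pairs of genes, each a cargo gene against a partner, receptor or relative, in replicates 1 to 3 (points), with the mean and SD (black). Ratios run from -1.57 (Thbs1 to Cd47) to 12.98 (Clu to Sparc), and each pair shown keeps 1 sign in the 3 libraries.

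Chaperone and matrix proteins held both ends of the order. Clu encodes clusterin, a secreted chaperone that also limits complement (Entrez gene 12759, chromosome 14, 65968483 to 65981548, plus strand). It was at 3508, 4003 and 4346 CPM, with 95% Clopper-Pearson intervals of 3485 to 3530, 3979 to 4028 and 4321 to 4372 CPM. Such intervals cover counting error only, and the test of spread gave Clu an unadjusted p of 0.757 (edgeR). Sparc encodes osteonectin, a collagen-binding matricellular protein (Entrez gene 20692, chromosome 11, 55394159 to 55420080, minus strand). It had 12, 17 and 14 counts, or 0.445, 0.675 and 0.536 CPM. Their 95% Clopper-Pearson intervals were 0.230 to 0.777, 0.393 to 1.08 and 0.293 to 0.900 CPM. At this depth the intervals are wide, and they do not test a difference between libraries. For scale, a gene with 0 counts could still be present at up to 3 counts, which correspond to 0.111, 0.119 and 0.115 CPM. Per gene length and with a prior count of 2, Clu was 8058-fold above Sparc (log2 ratio 12.98 ± 0.22) and Thbs1 358-fold (8.48 ± 0.39). The prior count lowers such ratios when counts are this small, and the mean RPKM of Clu was 9105 times that of Sparc. Sparcl1, the closest relative of Sparc on the list, was also low, at 0.350 ± 0.0764 RPKM.

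Timp3 encodes a tissue inhibitor of metalloproteases that binds matrix (Entrez gene 21859, chromosome 10, 86300412 to 86349505, plus strand). It had 541, 535 and 297 counts, or 20.1, 21.2 and 11.4 CPM, so replicate 3 was far below replicates 1 and 2, which were alike. Serpine2 was 3.28-fold above it per deposited gene length (log2 ratio 1.72 ± 0.57). By reads alone that log2 ratio was 0.53 ± 0.57, and with GENCODE lengths it was 0.50 ± 0.58. Timp3 was 7.97-fold above Timp2 (2.99 ± 0.20), whereas Timp1 and Timp4 were not in the tables. Of 8 metalloproteases that TIMP3 can inhibit, Adam10 (10.8 ± 0.904 RPKM) and Adam17, which sheds many surface proteins (1.59 ± 0.325 RPKM), were the 2 in the tables. In GENCODE M21, 1733 exon bases of Timp3 overlap Syn3 on the opposite strand, and the TruSeq RNA version 2 kit does not mark strand. Syn3 was not in the tables.

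The spread between libraries was tested for the 9 members with a mean of at least 1 CPM, in an edgeR quasi-likelihood fit on 8289 genes that set each gene's dispersion against the trend. At a Benjamini-Hochberg adjusted p under 0.05 the test called 22 genes, 0.265% of those tested, and 0 members, which does not show that the members did not differ. At an unadjusted p under 0.05 it gave 2 members, Timp3 and Thbs1, against 4.72% of all genes. Timp3 had rank 29 among the genes tested, with an adjusted p of 0.228 (edgeR), and Thbs1 had rank 94, with an adjusted p of 0.798 (edgeR). The other 7 members tested had unadjusted p between 0.573 and 0.789 (edgeR) and adjusted p of at least 0.991. Sparc was tested only without the filter on low counts, with an adjusted p of 0.993 (edgeR).

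The low levels of Timp3 and Thbs1 came from replicate 3. Timp3 was 44.7% lower there than in the other libraries by plain totals and 52.3% lower by TMM, a scaling that ignores the most extreme genes. Thbs1 was 27.1% lower by plain totals and 37.1% lower by TMM. With DESeq2 size factors Timp3 passed the threshold (adjusted p = 0.0279, edgeR), where 0.362% of genes were called, and it was a dispersion outlier in DESeq2, as were 0.591% of genes. Over all alternatives its adjusted p ran from 0.0279 to 0.996 (edgeR), and without replicate 3 it was 0.995. B cell markers (9 of 9 in the tables) were at 520.1 CPM in replicate 3 against 319.5 and 314, and T cell markers (6 of 7) at 50.6 against 33.3 and 34.9 CPM. Fibroblast and smooth muscle markers (5 of 9, with Col1a1, Lum, Pdgfra and Pdgfrb not in the tables) summed to 4.14 CPM in replicate 3 against 4.78 and 6.43. Of these, Dcn (33, 59 and 13 counts in replicates 1, 2 and 3), Col1a2 (47, 50 and 34) and Col3a1 (18, 13 and 5) were lowest in replicate 3, and Acta2 (23, 25 and 37) and Myh11 (8, 15 and 19) were highest there. Neutrophil markers (5 of 8) were at 14.1, 18.9 and 22.5 CPM in replicates 1, 2 and 3. The part of these cells in the Timp3 and Thbs1 values was not tested.

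The sign of smaller differences depends on the scaling, which moves all genes alike. By plain totals the median gene with a mean of at least 1 CPM was higher in replicate 3 than in the other libraries by 0.24 on the log2 scale, and 7 of the 9 members tested were higher. By TMM the median gene shifted by 0.02, and 8 of the 9 were lower, with a median of -0.16. Among these 9, only Thbs1 and Timp3 kept 1 sign, lower in replicate 3, under plain totals, TMM and DESeq2 size factors. Relative to the median gene, a difference that is the same under the 3 scalings by construction, all 9 were lower in replicate 3, by between -0.02 (Clu) and -1.09 (Timp3) on the log2 scale. The median of these 9 differences was -0.18. F5 (-0.16), F13a1 (-0.18), Mmrn1 (-0.21) and Pros1 (-0.19) lay near that median, and Thbs1 was at -0.69. As many genes lie below the median gene as above it, and a small rise in replicate 3 was not particular to the members. By plain totals the summed platelet markers were at 39421, 41296 and 42189 CPM in replicates 1, 2 and 3. Their rise in replicate 3 was also smaller than that of the median gene. Single markers varied, with Pf4 at 9858, 10381 and 9768 CPM and Gp1ba at 589, 560 and 689 CPM. None of these differences from the median gene was tested, nor was any difference between members and other platelet genes.

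**Figure D4:**
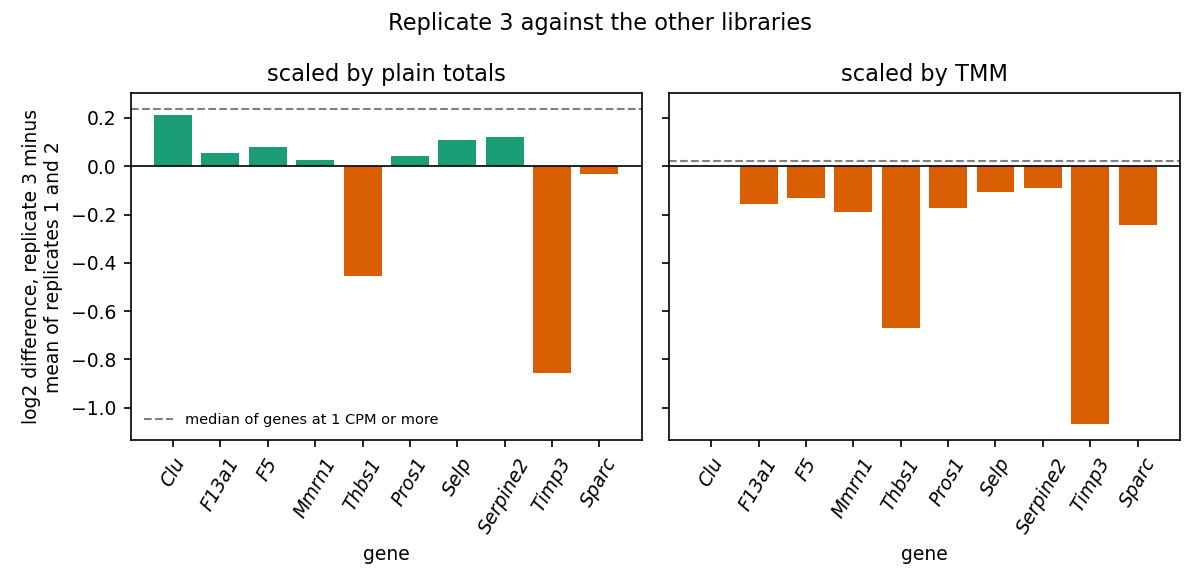
Log2 difference of replicate 3 from the mean of replicates 1 and 2 for each cargo gene, scaled by plain totals (left) and by TMM (right), with the median of 8289 genes (dashed). Timp3 (-0.86 and -1.07) and Thbs1 (-0.46 and -0.67) are low under both scalings. Clu is above 0 by plain totals (0.21) and practically at 0 by TMM (0.00036). Sparc, which rests on few counts, is below 0 under both (-0.03 and -0.24), and the remaining genes change sign between them.

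Related haemostatic genes were only partly in the tables. The share of all annotated genes kept in the tables is not reported here, so counts of listed genes present have no baseline. Of 30 other adhesive and haemostatic genes of granule or plasma, 6 were present, with a median of 6.64 RPKM, among them Ecm1 (1227 ± 100.4), Vwf (261 ± 34.7), F10 (10.6 ± 0.729), Gas6 (1.003 ± 0.129) and Fn1 (0.473 ± 0.120 RPKM). Vwf encodes von Willebrand factor, and F5 was slightly below it per gene length in all 3 libraries (log2 ratio -0.26 ± 0.15). The 3 fibrinogen chain genes Fga, Fgb and Fgg were not in the tables, and neither were F8 and Vtn. The chemokine and growth factor cargo was led by Pf4 at 17011 ± 563 RPKM and Ppbp at 9416 ± 496 RPKM, both above Clu.

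Members were compared with the rest of their families. Of 8 other transglutaminases 3 were in the tables, and Tgm2, the highest, was at 1.75 ± 0.140 RPKM against 379 RPKM for F13a1. Of 15 thrombospondin and matricellular relatives 3 were in the tables, Emilin1 (3.22 ± 0.482), Sparcl1 and Emilin2 (0.338 ± 0.0913 RPKM), so Thbs2, Thbs3, Thbs4 and Mmrn2 were not.

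Genes that fold, modify and carry these proteins through the secretory pathway were nearly all present. Of 18 on the list 17 were in the tables and their median was 3.00 RPKM, against 1.49 RPKM for all genes, with Calr (13.9 ± 0.428), Surf4 (13.3 ± 0.601) and Mcfd2 (10.4 ± 0.807 RPKM) highest. Lman1 and Mcfd2 encode the receptor complex that carries factor V out of the endoplasmic reticulum. Lman1 was at 0.257 RPKM, from only 29, 16 and 30 counts in replicates 1, 2 and 3. With a prior count of 2, F5 was 801-fold above it per gene length (log2 ratio 9.65 ± 0.37). Ggcx, the carboxylase that modifies protein S, was not in the tables, and Vkorc1, which supplies its vitamin K, was at 8.68 RPKM. In alpha granule biogenesis all 6 genes were present, led by Srgn, the proteoglycan that packs cargo, at 3383 ± 87.0 RPKM, and the transcription factors Gata1 (91.1 ± 16.8) and Gfi1b (51.3 ± 5.85 RPKM). Nbeal2, which is lost in grey platelet syndrome, was at 2.04 RPKM.

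Some members are also known from other cells: F13a1 and Thbs1 from monocytes and macrophages, and Selp, Mmrn1 and Sparc from endothelium. Monocyte and macrophage markers (9 of 11 in the tables) summed to 1312, 1536 and 1391 CPM, nearly all from Lyz2; Csf1r was at 1.38 CPM, and Cd14 and Mrc1 were not in the tables. Endothelial markers (7 of 11) summed to 1729, 1835 and 1800.1 CPM, of which Pecam1, also a platelet gene, gave 1328 ± 25.0. Aqp1 was at 132 ± 8.91 RPKM, Plvap at 14.5 ± 0.298 and Tie1 at 14.1 ± 0.963 RPKM, all above Selp, while Kdr was at 1.58 RPKM. Cdh5, the defining cadherin of endothelium, was at 0.453 RPKM, and Tek, Emcn, Sele and Cldn5 were not in the tables. The part of these cells in the levels of the members was not tested. Hepatocyte markers, relevant to plasma proteins, were represented by 2 of 8 genes, Apoh (2.16 CPM) and Alb (0, 126 and 14 counts). Fewer cells of a type and less RNA per cell cannot be told apart in such libraries.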

How the data were processed

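RNA of purified mouse platelets was sequenced in 3 libraries of 1 group, taken from the genotype label and numbered in accession order. A Norgen kit and the Illumina TruSeq RNA v2 kit were used, per the labels' protocols. The deposited tables hold raw counts per Entrez gene, with a gene length, and are 1 per library. The submitters' processing notes name CASAVA 1.8.2, Subread, featureCounts, edgeR 3.11.5 and mm10; the annotation, the strand setting and the rule by which genes were kept were not given in the sources used here. Genes not in the tables may have been left out by that rule.

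Symbols and GRCm38.p6 positions came from the RefSeq gene table (9636 of 9822 genes matched), and promoters from its promoter table. Exon overlaps and alternative lengths came from GENCODE M21. CPM used the plain total of counts, and RPKM is CPM per 1000 bases of the deposited gene length. Ratios of pairs used a prior count of 2. For the spread between libraries, edgeR 4.0.16 (limma 3.58.1, R 4.3.3) used an intercept-only quasi-likelihood model and TMM scaling on 8289 genes with a mean of at least 1 CPM. Each gene's dispersion (2 residual degrees of freedom) was compared with the trend in an upper-tail F test, and p-values were adjusted by Benjamini-Hochberg over all genes tested. The step was tested on simulated data.

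Alternatives were TMM totals, totals without the 10 highest genes, DESeq2 1.42.0 size factors and dispersion outliers, a minimum of 5 CPM or none, a robust prior, a prior count of 0.5, each replicate left out and, chosen after seeing the data, GENCODE lengths. The members, lists and tests were chosen with earlier results of these data known. The genes named are the members, both genes of 14 pairs, the 3 highest of each list by RPKM, list genes called in the test of spread and the gene nearest to each member in log2 RPKM; other genes were named after their values were seen, and some genes that this rule names are not reported here. Features of the proteins were not analysed here. Python 3.11.15, NumPy 2.4.6, pandas 2.3.3, SciPy 1.17.1 and matplotlib 3.10.9 were used.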

Additional observations from a re-analysis of the deposited data

How the results depend on the processing

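Without the 10 highest genes in the totals, the members took 1.49% of counts in place of 0.845%, and the median member was at 129.7 RPKM in place of 73.6; the smaller total sets both. TMM and DESeq2 totals left both within 1 SD. The spread test called 22 genes, 11 with plain totals, 0 with a robust prior (422 at an unadjusted p under 0.05) and 49 as DESeq2 dispersion outliers; leaving out 1 replicate gave 2 to 29, the lowest without replicate 1, the library high in red cell genes. The cause of these changes in the calls, also of the one without replicate 1, was not tested. By reads, F13a1 was below F5, but above it per gene length (log2 ratio 0.81). Thbs1 to Cd47, 0.03 by reads, was -1.57 per gene length and -0.083 by reads without replicate 1, -0.025 without replicate 2 and 0.193 without replicate 3. The RUNX letters were in 0 of 8 members in the 250 bases before the start. GENCODE lengths lowered the levels of single members to between 0.248 and 0.997 times the main value, Serpine2 the most. No paired analysis was possible because there is 1 group. Depth limits Sparc, which rests on 12 to 17 counts.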

Other observations

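The genomic neighbours of the members had levels of their own, a comparison chosen after values were seen. F5 and Selp lie on the same strand of chromosome 1, with 1808 bases between the end of Selp and the start of F5, and F5 was 16.8-fold above Selp per gene length in all 3 libraries (log2 ratio 4.07 ± 0.02, SD, n = 3). Slc19a2, beyond F5, was not in the tables. The long non-coding gene Gm16548 runs opposite to both, sharing 438 exon bases with Selp and 262 with F5 in GENCODE M21. It was at 1.28 ± 0.170 RPKM. Without strand, reads that lie within these shared bases cannot be told apart.

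Atox1, a copper chaperone gene that begins 26556 bases after the end of Sparc on the map, was at 1411 ± 23.3 RPKM against 0.240 for Sparc.

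The genes with the nearest levels over the 3 libraries, by Euclidean distance of log2 RPKM, were Itga2b for Clu (0.09), Cox8a for F13a1 (0.04), Esam for F5 (0.08), Actn4 for Mmrn1 (0.05), Fyb for Pros1 (0.03), Cnot6 for Selp (0.04), Pdk1 for Serpine2 (0.05) and Klc2 for Sparc (0.10). The nearest to Thbs1, Arl5a (0.29), and to Timp3, Bmp2 (0.41), were farther away.

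Genes of the marker lists that the edgeR test of spread called were Hba-a1, Hba-a2, Hbb-b1, Alas2 and Slc4a1, all highest in replicate 1, and Alb, highest in replicate 2.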
